A study of Mus musculus with 4 samples.

Results

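The transcripts of 48 genes of BRCA1-linked break repair were compared in 4 primary mouse mammary tumors. The rule that chose them is a list of gene names and uses no measured value, though the list was drawn up with earlier results of these data known. The genes were found among 23746 gene rows, 47 under the listed symbol and 1, Rad51d, under its older symbol Rad51l3. Tumors 26043 and 26044 came from WapCre;Rank;Brca1;p53 triple-mutant females, and tumors 26048 and 26050 from WapCre;Brca1;p53 double-mutant females. In both genotypes the WapCreC transgene recombines floxed Brca1 (tm2Cxd) and floxed Trp53 (tm1Elee) alleles in luminal and basal mammary epithelium, without pregnancy being needed. The triple-mutant mice also carry the floxed Rank (Tnfrsf11a, tm1.1Pngr) allele, so Rank is the only allele named in the labels that separates the groups. The labels give no age, tumor grade or litter for these 4 animals, and there is no sample of normal mammary gland or of a tumor with intact Brca1. Every comparison is therefore between 2 kinds of Brca1;p53 tumor, with 2 tumors of each kind.

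A double-strand break in DNA is repaired by copying the sister chromatid (homologous recombination) or by rejoining the ends directly (end joining). BRCA1 with its partner BARD1 favours cutting back the broken ends to single strands, and with PALB2 and BRCA2 it promotes the invasion of the sister chromatid by those strands, whereas 53BP1 and its effector RIF1 protect the ends and so counter that step. The ATM and ATR kinases signal the break, the Fanconi anemia proteins unhook DNA crosslinks, and PARP1 binds breaks early. Loss of BRCA1 predisposes the breast to tumors and makes cells sensitive to PARP inhibitors.

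The unit throughout is FPKM, fragments per kilobase of transcript, scaled to the total of mapped fragments, and differences were taken on a log2(FPKM + 1) scale as triple-mutant minus double-mutant. For low genes the added 1 makes such a difference too small. All 48 genes reached 1 FPKM in at least 2 tumors and entered a limma fit with 12752 genes in all. Polq passed that filter only through the double-mutant tumors. The p values and standard errors rest on these 4 tumors alone. In them limma drew the variance of each gene toward a trend fitted over all genes tested. They are thus not a measure of that gene's own spread alone. Depth per tumor is unknown, and Cufflinks gave each value an interval whose median half-width for the 48 genes was 9.84% to 11.2% of its midpoint. Of the 192 member values, 97 lay outside their own interval (all 4 values for 21 genes and none for 20), so the interval was not used as an error, and its midpoint was tried in place of the FPKM.

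Most of the 48 genes were at low to moderate levels, and more of them lay higher in the double-mutant than in the triple-mutant tumors. The median member was at 4.65 and 3.96 FPKM in the triple-mutant tumors 26043 and 26044 and at 5.79 and 5.88 FPKM in the double-mutant tumors 26048 and 26050. Both double-mutant tumors lay above both triple-mutant tumors for 23 of 48 members, beside 22.9% of all genes tested, and the reverse held for 5 members, beside 21.3%. The log2 fold change was below 0 for 35 of 48 members, beside 51.6% of all genes, and its median was -0.24 against -0.02 over all genes. Under rescaling to TPM 19 members, and with the interval midpoint 18, were higher in both double-mutant tumors. The share of all genes is given here for the FPKM only, so those counts of 19 and 18 have no background beside them. The median stayed between -0.30 and -0.16 under every alternative tried. No member passed an adjusted p of 0.05 in limma with Benjamini-Hochberg adjustment, and no gene at all did in either direction (0% of 12752). Their adjusted p values ran from 0.480 to 0.993. At an unadjusted p under 0.05, 1 member was higher in the triple-mutant tumors (Fance, beside 5.91% of all genes) and 1 in the double-mutant tumors (Fancm, beside 3.91%), so the counts of single genes lay at or under the background. For 17 of 48 members (35.4%) the difference between genotypes was larger than the differences between the tumors of each genotype, beside 29.6% of all genes. Without Polq, 22 of 47 members were higher in both double-mutant tumors and the median was -0.23.

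**Figure D1:**
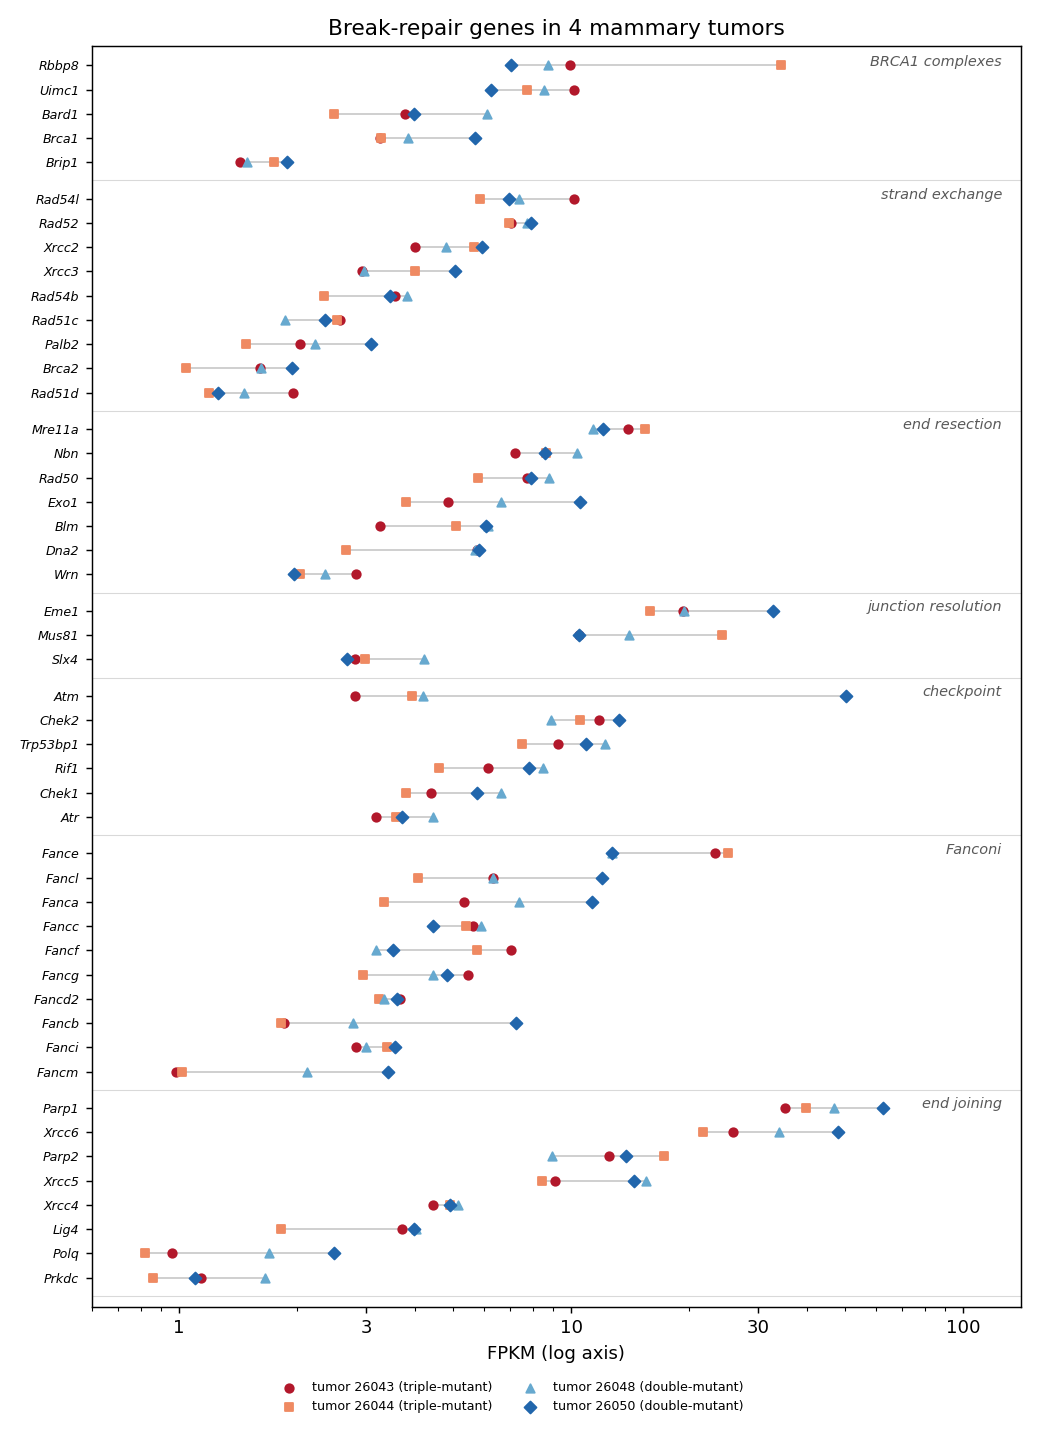
FPKM of the 48 break-repair genes (log axis) in each of the 4 tumors, 1 row per gene, ordered by mean FPKM within 7 groups by role; circles and squares are the triple-mutant tumors 26043 and 26044, triangles and diamonds the double-mutant tumors 26048 and 26050, and a grey line joins the lowest and the highest tumor. Parp1 is the highest gene by mean level and Prkdc the lowest, and the widest spread is that of Atm, where tumor 26050 stands at 50.4 FPKM and the other 3 tumors lie between 2.81 and 4.19 FPKM.

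Tumors of a genotype were not alike. Tumor 26050 held the highest level for 20 members, beside 24.7% of all genes, and tumor 26048 for 15, beside 23.2%. Tumor 26043 was highest for 8 members, beside 27.9%, and tumor 26044 for 5, beside 24.2%. Proliferation genes were highest in tumor 26050 for 15 of 26, but in tumor 26048 for 2, in tumor 26044 for 6 and in tumor 26043 for 3. Both double-mutant tumors were higher for 9 of these 26 and both triple-mutant tumors for 1, beside 22.9% and 21.3% of all genes, with a median log2 fold change of -0.21. Summed over those 26 genes, FPKM came to 1228 in tumor 26043, 1373 in 26044, 1272 in 26048 and 1805 in 26050. The part of proliferation in the members' levels was not tested.

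The tumors also differed in cell makeup as read from markers. The summed FPKM of 6 luminal markers was 2997 in tumor 26043 and 420.3 in tumor 26044, against 2235 and 2046 in the double-mutant tumors. Krt19 set that order, and without it the sums were 1843 and 227 against 2096 and 1989, with Epcam, Krt8, Krt18 and Elf5 each higher in both double-mutant tumors. Summed basal markers (Krt5, Krt14, Krt17, Trp63 and Acta2) stood at 1736 and 1258 FPKM in the triple-mutant tumors. In the double-mutant tumors they stood at 67.4 and 46.3 FPKM, and all 5 were higher in both triple-mutant tumors. Acta2 made up most of the sum in tumor 26044, at 898 FPKM. It was nearly level in tumors 26043 and 26048, at 64.8 and 59.7 FPKM. Krt5, Krt14 and Krt17 were lower in tumor 26044 than in tumor 26043, and Trp63 was higher. The sum of 8 fibroblast markers ran from 138 to 241 FPKM in the triple-mutant and from 458 to 946 FPKM in the double-mutant tumors. Collagen genes set most of it, with Col1a1 alone at 102 and 32.6 FPKM against 486 and 200 FPKM. Of the 8, 4 were higher in both double-mutant tumors, Pdgfra was higher in both triple-mutant tumors and 3 overlapped. The sum of 12 immune markers ran from 54.8 to 145 FPKM in the triple-mutant and from 116 to 189 FPKM in the double-mutant tumors. Markers of adipocytes stood at 2015 FPKM in tumor 26048 and at 9.43 to 261 FPKM in the others. Nearly all of the 261 FPKM, in tumor 26044, was Fabp4, with Adipoq, Plin1 and Lep at 0 there. Markers of endothelium stood at 27.9 to 91.7 FPKM with the genotypes overlapping. No marker was at 0 in all 4 tumors. In bulk tissue, fewer cells of a type and less RNA per cell cannot be told apart, and the part of cell makeup in the repair genes' levels was not tested. Of the alleles, Tnfrsf11a stood at 2.07 and 0.96 FPKM in the triple-mutant and at 10.6 and 11.9 FPKM in the double-mutant tumors, with no overlap. Trp53 stood at 15.7, 87.8, 150 and 103 FPKM in the order 26043, 26044, 26048 and 26050, also with no overlap. FPKM covers the whole gene, so these values do not show whether the floxed part of either gene is absent.

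Many of these genes share a promoter region with a neighbour. Of the 48, 13 (27.1%) start within 1000 bp of a gene that runs the opposite way, against 10.2% of 12107 genes tested and placed in GENCODE M21. Brca1 starts 194 bp from Nbr1, Atm 307 bp from Npat, Palb2 56 bp from Dctn5, Fancb 217 bp from Mospd2, Lig4 21 bp from Abhd13 and Prkdc 466 bp from Mcm4, a subunit of the replicative helicase. The other 7 pairs are Rad51c and Tex14, Xrcc3 and Zfyve21, Rad54l and Pomgnt1, Wrn and Purg, Chek2 and Hscb, Fancd2 and Emc3, and Parp2 and Ccnb1ip1. The 300 bases around the starts of Atm and Brca1 are shown because another gene starts so close to them. Those of Bard1, Brca2 and Xrcc6 are shown because each holds a letter match to the binding motif of E2F factors, which drive genes of DNA replication and repair in S phase, and because all 3 genes lay higher in both double-mutant tumors. Each runs from 250 bases before to 50 bases after the start of the gene, 5′ to 3′ on the gene's own strand, from RefSeq on GRCm38.p6, and capitals mark the motif. The windows are Atm at chr9:53536622-53536921 (minus strand), Brca1 at chr11:101551906-101552205 (minus), Bard1 at chr1:71102923-71103222 (minus), Brca2 at chr5:150522371-150522670 (plus) and Xrcc6 at chr15:82016119-82016418 (plus).
Atm: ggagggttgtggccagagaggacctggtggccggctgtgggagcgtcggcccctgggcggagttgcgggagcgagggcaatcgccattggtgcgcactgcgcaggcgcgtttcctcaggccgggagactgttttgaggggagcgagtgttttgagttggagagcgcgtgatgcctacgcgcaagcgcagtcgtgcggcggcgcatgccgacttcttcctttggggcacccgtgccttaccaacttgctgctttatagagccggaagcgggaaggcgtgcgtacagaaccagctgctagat
Brca1: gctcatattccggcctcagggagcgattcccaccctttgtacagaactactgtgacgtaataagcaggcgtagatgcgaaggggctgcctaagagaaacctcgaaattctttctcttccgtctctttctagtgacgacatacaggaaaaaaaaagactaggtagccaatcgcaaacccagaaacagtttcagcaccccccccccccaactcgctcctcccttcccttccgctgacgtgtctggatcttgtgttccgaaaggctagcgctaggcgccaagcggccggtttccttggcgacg
Bard1: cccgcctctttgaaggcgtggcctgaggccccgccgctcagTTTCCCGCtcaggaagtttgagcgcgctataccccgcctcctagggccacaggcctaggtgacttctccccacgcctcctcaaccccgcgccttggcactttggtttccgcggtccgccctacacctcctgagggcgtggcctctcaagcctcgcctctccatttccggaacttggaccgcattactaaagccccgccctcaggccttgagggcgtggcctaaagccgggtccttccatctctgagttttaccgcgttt
Brca2: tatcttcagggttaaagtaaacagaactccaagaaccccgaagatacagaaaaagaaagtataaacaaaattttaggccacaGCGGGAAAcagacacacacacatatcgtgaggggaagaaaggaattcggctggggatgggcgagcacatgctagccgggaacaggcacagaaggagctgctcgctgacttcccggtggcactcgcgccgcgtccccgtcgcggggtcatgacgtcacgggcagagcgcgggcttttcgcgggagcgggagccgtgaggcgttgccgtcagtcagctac
Xrcc6: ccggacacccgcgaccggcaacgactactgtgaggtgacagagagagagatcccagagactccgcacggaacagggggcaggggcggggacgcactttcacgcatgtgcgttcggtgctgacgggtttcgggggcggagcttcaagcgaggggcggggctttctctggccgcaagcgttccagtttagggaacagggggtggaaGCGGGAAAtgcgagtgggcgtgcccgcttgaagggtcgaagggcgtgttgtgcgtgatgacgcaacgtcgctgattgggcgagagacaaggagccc

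The motif was searched as TTTGGCGC, TTTCCCGC, TTTGCCGC and TTTCGCGC on both strands, and no position can match more than 1 of these. In 37 members with a promoter in the RefSeq table, 6 held it (16.2%): Bard1, Brca2, Rad51c, Xrcc6, Chek2 and Fancg. Among genes tested with a promoter in the table it was found for 432 of 9038 (4.78%), and among all genes of the table for 704 of 27025 (2.6%). Counted in bases from the gene start, the match begins at -209 in Bard1, -168 in Brca2 and -46 in Xrcc6. Members with it did not stand apart in direction: 3 of 6 were higher in both double-mutant tumors with a median log2 fold change of -0.21, and 17 of 31 without it, with a median of -0.40. A match is a run of letters, and factor binding was not measured.

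The BRCA1 complexes came out mixed, with Brca1 and Bard1 lower and Rbbp8 higher in the triple-mutant tumors. Brca1 (chr11:101488764-101551955, minus strand) stood at 3.26 and 3.28 FPKM in the triple-mutant and at 3.84 and 5.69 FPKM in the double-mutant tumors. Both double-mutant tumors were higher, tumor 26048 by little, and the log2 fold change was -0.41 (SE 0.34, n = 2 tumors a genotype, limma adjusted p = 0.702). The largest exon of Brca1, called exon 11 by convention and the one floxed in the tm2Cxd allele, spans chr11:101523325-101526639 and holds 3315 of 6572 transcript bases (50.4%). Since FPKM covers the whole gene and was given for no exon, it does not show whether that exon is absent. Bard1, the RING partner without which BRCA1 is unstable, was at 3.78 and 2.49 FPKM against 6.09 and 3.98 FPKM. Its double-mutant tumors were higher too, but tumor 26048 led here and tumor 26050 led for Brca1, and the log2 ratio of Brca1 to Bard1 ran from -0.55 to 0.43 with the genotypes overlapping.

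Rbbp8 encodes CtIP, which BRCA1 binds to start end resection. It stood at 9.92 and 34.3 FPKM in the triple-mutant and at 8.73 and 7.03 FPKM in the double-mutant tumors, with a log2 fold change of 1.15 (SE 0.63, adjusted p = 0.597). Tumor 26044 alone was high, and without it the log2 fold change was 0.31. On the log2 scale that tumor lay 1.90 above the mean of the others, and the median of the 4 tested genes within 0.5 Mb was 0.44. Uimc1 (RAP80, which brings the BRCA1-A complex to ubiquitin at breaks) and Brip1 (the FANCJ helicase) overlapped between genotypes, Uimc1 at 6.24 to 10.2 FPKM and Brip1 at 1.43 to 1.89 FPKM.

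Strand exchange genes were low, and their log2 fold changes, made smaller by the added 1, ran from -0.40 to 0.19. Their mean levels ran from 1.47 FPKM for Rad51d to 7.59 FPKM for Rad54l. Of the 9, 3 were higher in both double-mutant tumors and 1 in both triple-mutant tumors, beside 22.9% and 21.3% of all genes, and 5 in neither. Brca2, which binds single-stranded DNA and promotes strand exchange, was at 1.61 and 1.04 FPKM in the triple-mutant and at 1.62 and 1.94 FPKM in the double-mutant tumors. The highest triple-mutant and the lowest double-mutant tumor were nearly level, and tumor 26044 was lowest. Palb2, which joins BRCA2 to BRCA1, was at 2.04 and 1.48 FPKM against 2.22 and 3.08 FPKM, again lowest in tumor 26044 and highest in 26050. The ratio of Brca2 to Palb2 stayed within -0.22 to -0.47 on the log2 scale over all 4 tumors, the narrowest range of 12 partner ratios. Rad52, a strand-annealing protein, was at 7.03 and 6.95 FPKM against 7.71 and 7.89 FPKM, a small difference without overlap (log2 fold change -0.14). Rad51c, which assists strand exchange, was the only gene of these 9 with both triple-mutant tumors higher, at 2.58 and 2.52 FPKM against 1.87 and 2.36 FPKM (log2 fold change 0.19, SE 0.30, adjusted p = 0.842). That difference was smaller than the one between its double-mutant tumors.

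The other paralogs and the motor proteins showed no order by genotype. Rad51d (1.19 to 1.95 FPKM), its partner Xrcc2 (4.0 to 5.91 FPKM) and Xrcc3 (2.93 to 5.06 FPKM), which pairs with the product of Rad51c, all overlapped, and so did the DNA translocases Rad54l (5.87 to 10.1 FPKM) and Rad54b (2.34 to 3.82 FPKM). The log2 ratio of Rad51c to Xrcc3 ran from -0.13 to -0.85 and that of Rad51d to Xrcc2 from -0.76 to -1.61, with overlap in both.

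End resection held members on both sides of the comparison. Exo1, the exonuclease of long-range resection (chr1:175880778-175911396), was at 4.85 and 3.79 FPKM in the triple-mutant and at 6.62 and 10.6 FPKM in the double-mutant tumors. Tumor 26050 was highest and tumor 26044 lowest without overlap, and the log2 fold change was -0.83 (SE 0.37, adjusted p = 0.543). Its neighbours were shifted as well: in tumor 26050 Exo1 lay 0.95 above the mean of the others and the median of its 3 neighbours within 0.5 Mb lay 0.62 above, and the log2 fold change less that of the neighbours was -0.33. Mre11a, the nuclease of the MRE11-RAD50-NBS1 sensor (chr9:14784707-14834417), was at 14.0 and 15.4 FPKM against 11.4 and 12.0 FPKM, so both triple-mutant tumors were higher (log2 fold change 0.30, SE 0.28, adjusted p = 0.736). Less the median of 10 neighbours within 0.5 Mb, that value turned to -0.15.

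The subunits of that sensor differed in order between the genotypes in the FPKM as given. Rad50, its ATPase, was at 7.73 and 5.79 FPKM in the triple-mutant and at 8.76 and 7.90 FPKM in the double-mutant tumors, opposite in order to Mre11a and higher in tumor 26048 than elsewhere. Its log2 fold change of -0.28 was 0.0031 less its neighbours within 0.5 Mb and -0.038 with the interval midpoint, so neither subunit kept its direction under all alternatives. The log2 ratio of Mre11a to Rad50 was 0.78 and 1.27 in the triple-mutant and 0.34 and 0.55 in the double-mutant tumors, without overlap. Nbn, the third subunit, overlapped at 7.19 to 10.4 FPKM, and its log2 ratio to Rad50 ran from -0.09 to 0.50. With 2 tumors against 2, an exact permutation test of such a ratio cannot give a p below 0.333, so none was run.

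Of the helicases of resection, Blm, the gene of Bloom syndrome, was at 3.25 and 5.09 FPKM in the triple-mutant and 6.13 and 6.05 FPKM in the double-mutant tumors, with no overlap and the low value in tumor 26043. Dna2, a nuclease and helicase, was level in 3 tumors at 5.67 to 5.84 FPKM and low in tumor 26044 at 2.67 FPKM. There it lay 0.88 under the mean of the others on the log2 scale, and the median of its 12 neighbours within 0.5 Mb lay 0.93 under, so Dna2 was as low as the genes beside it. Wrn, the gene of Werner syndrome, overlapped at 1.96 to 2.83 FPKM.

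The junction-resolving nucleases gave the least steady partner ratio apart from that of Atr to Atm. Eme1 was at 19.3 and 15.9 FPKM in the triple-mutant and at 19.5 and 32.7 FPKM in the double-mutant tumors, the upper value in tumor 26050, and tumor 26048 hardly above tumor 26043. Its catalytic partner Mus81 was at 10.5 and 24.2 FPKM against 14.0 and 10.5 FPKM, high in tumor 26044 alone. The log2 ratio of Mus81 to Eme1 thus ran from -1.55 in tumor 26050 to 0.58 in tumor 26044, with the genotypes overlapping. Slx4, the scaffold that binds MUS81-EME1, stayed at 2.68 to 4.21 FPKM and overlapped.

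Among checkpoint and end-protection genes, 5 of 6 were higher in both double-mutant tumors and none in both triple-mutant tumors, beside 22.9% and 21.3% of all genes. Of these 5, Atm and Atr turned in sign once the median of their neighbours within 0.5 Mb was taken off. Atm (chr9:53437122-53536671, minus strand), the kinase that answers double-strand breaks, was at 2.81 and 3.94 FPKM in the triple-mutant and at 4.19 and 50.4 FPKM in the double-mutant tumors. Tumor 26050 was 13.8 times the mean of the other 3, which lay close together. The log2 fold change of Atm was -1.91 (SE 1.14, adjusted p = 0.619), and without tumor 26050 it was -0.26 (adjusted p = 0.992), so most of the difference came from 1 tumor.

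The genes beside Atm were raised in the same tumor. Ddx10, Kdelc2, Atm, Npat, Acat1 and Cul5 are 6 neighbouring tested genes over 569 kb (chr9:53098454-53667507), and all lay at least 2 log2 units above the other tumors in tumor 26050. Their levels in tumor 26050 were 8.67 to 27.3 times the mean of the other 3 tumors, with Ddx10 at 279 FPKM against 8.97 to 12.0 FPKM, Npat at 82.5 FPKM against 3.83 to 4.68 FPKM and Acat1 at 268 FPKM against 24.2 to 37.3 FPKM. Atm was thus not the highest of the run in fold or in level. The next tested genes on either side were level with the other tumors, Rdx at 0.04 and Dmxl2 at 0.14 log2 units above the others. The run was not isolated: 9 more genes, among 26 tested genes that start 2.54 to 4.97 Mb before Atm, lay 2.68 to 4.14 log2 units above the other tumors in tumor 26050, among them Ppp2r1b, Rbm7, Zw10, Rexo2 and Ttc12. The tested genes among and between them lay between -2.51 (Pou2af1) and 1.35 (Ncam1) on the same scale, and on the other side of Atm 1 gene within 5 Mb, Sema7a, lay at least 2 units above. In all, 25 of 729 tested genes of chromosome 9 (3.43%) and 153 of all 12752 genes (1.2%) lay that far above in tumor 26050. Less the median of its neighbours within 0.5 Mb, the log2 fold change of Atm was 0.11, and less that of 87 neighbours within 5 Mb it was -1.79. Gene copy number was not measured in these samples, and the cause was not tested.

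**Figure D2:**
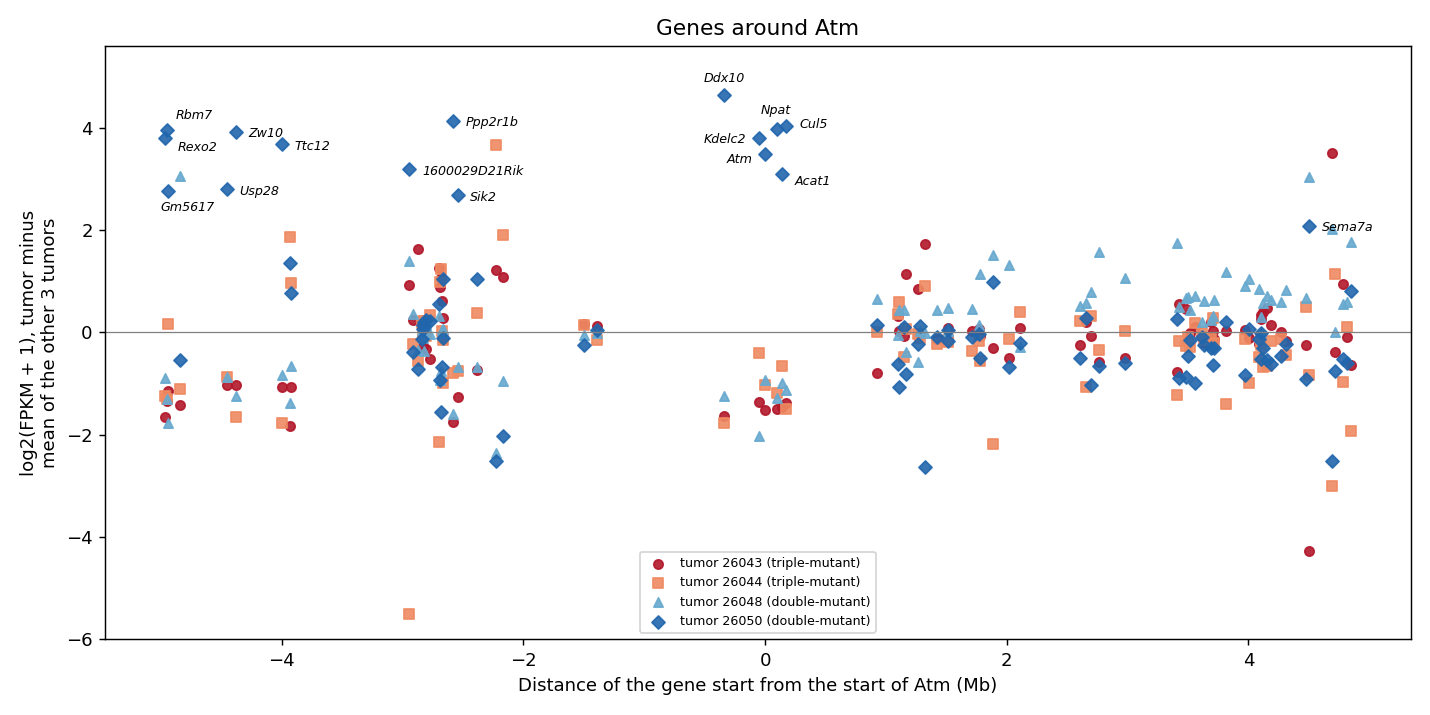
Level of each tested gene within 5 Mb of Atm in each tumor, as log2(FPKM + 1) minus the mean of the other 3 tumors, against the distance of its start (the lower coordinate of each gene) from that of Atm in Mb; symbols are the 4 tumors. In tumor 26050 (diamonds) the 6 named genes, Ddx10 to Cul5, lie 3.10 to 4.65 log2 units above the other tumors, the next tested genes on either side, Rdx and Dmxl2, lie at 0.04 and 0.14, and 9 more genes 2.54 to 4.97 Mb to the left lie 2.68 to 4.14 above; names mark diamonds at 2 or more.

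The other checkpoint genes differed by less. Atr, the kinase that answers single-stranded DNA, was at 3.19 and 3.59 FPKM in the triple-mutant and at 4.46 and 3.71 FPKM in the double-mutant tumors, nearly level in tumors 26044 and 26050. Less its neighbours within 0.5 Mb the log2 fold change of Atr was 0.10, from -0.21. Its target kinase Chek1 was at 4.39 and 3.80 FPKM against 6.63 and 5.75 FPKM, without overlap and with a log2 fold change of -0.50. Chek2, the target of ATM, overlapped at 8.87 to 13.2 FPKM. In tumor 26048 Chek2 lay 0.38 and its 9 neighbours within 0.5 Mb a median of 0.40 under the other tumors.

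Trp53bp1 and Rif1, whose products counter resection, were higher in both double-mutant tumors. Trp53bp1 (53BP1) stood at 9.26 and 7.50 FPKM in the triple-mutant and at 12.2 and 10.9 FPKM in the double-mutant tumors (log2 fold change -0.43, adjusted p = 0.666). Its effector Rif1 stood at 6.15 and 4.59 FPKM against 8.50 and 7.81 FPKM (log2 fold change -0.53, adjusted p = 0.620). For both genes the order of the tumors was the same, 26048 highest, then 26050, 26043 and 26044, and the differences did not pass the test. Loss of either protein restores resection in BRCA1-deficient cells, and neither transcript was near 0 in any tumor. Some other genes of that pathway overlapped between genotypes. Mad2l2 (REV7) was at 27.5 and 18.7 FPKM in the triple-mutant and at 11.1 and 19.0 FPKM in the double-mutant tumors (log2 fold change 0.61). The ubiquitin ligases Rnf8 and Rnf168 had log2 fold changes of 0.01 and 0.07. Mdc1, a further gene of break signalling, did not overlap, at 5.31 and 5.89 FPKM in the triple-mutant and 7.82 and 7.19 FPKM in the double-mutant tumors (log2 fold change -0.37). Of 20 break signalling genes, 5 were higher in both double-mutant and 4 in both triple-mutant tumors, beside 22.9% and 21.3% of all genes, and 11 overlapped.

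**Figure D3:**
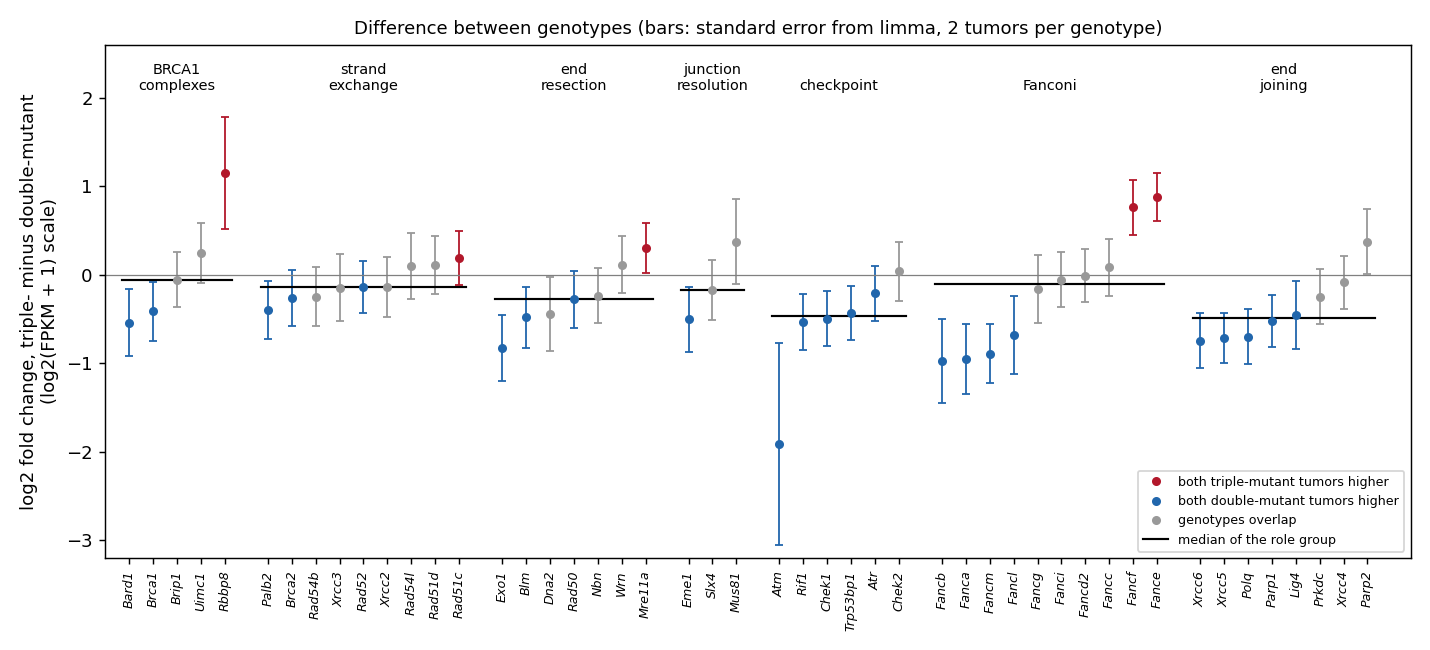
Log2 fold change of each of the 48 genes, triple-mutant minus double-mutant on the log2(FPKM + 1) scale, with its standard error from limma (2 tumors per genotype), in 7 groups by role; red and blue points are genes whose genotypes do not overlap, higher in the triple-mutant and in the double-mutant tumors, grey points overlap, and black lines are group medians. The group medians are lowest for end joining (-0.49, or -0.46 without Polq) and for the checkpoint genes (-0.46), and the largest change in size is that of Atm at -1.91, which also has the widest error bar.

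The Fanconi anemia genes held the largest differences in both directions after Atm and Rbbp8. Of 10 members, 4 were higher in both double-mutant tumors and 2 in both triple-mutant tumors, beside 22.9% and 21.3% of all genes, and 4 overlapped. The count of 2 lay near the share of all genes. Fancb, an X-linked subunit of the core ubiquitin ligase complex (chrX:164980592-164997272), stood at 1.85 and 1.83 FPKM in the triple-mutant and at 2.78 and 7.25 FPKM in the double-mutant tumors (log2 fold change -0.98, SE 0.48, adjusted p = 0.568). The triple-mutant tumors were level and tumor 26050 stood high, and without tumor 26050 the log2 fold change was -0.41. Fancb lay 1.40 above the others in tumor 26050, the median of 33 genes within 5 Mb lay 0.76 above, and Mospd2, which shares its promoter region, was at 7.0 FPKM there against 2.78 to 4.82 FPKM.

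Fanca, a core complex subunit (chr8:123268244-123318576), was at 5.34 and 3.34 FPKM in the triple-mutant and at 7.35 and 11.3 FPKM in the double-mutant tumors. There was no overlap, and the log2 fold change was -0.95 (SE 0.39, adjusted p = 0.532). Less the median of 92 neighbours within 5 Mb it was -0.51, and less that of 21 within 0.5 Mb it was -0.48. Fancm, the translocase that anchors the core complex to DNA (chr12:65075606-65132058), was at 0.985 and 1.02 FPKM against 2.12 and 3.41 FPKM, and its log2 fold change of -0.89 (SE 0.34) had an unadjusted limma p of 0.0493 and an adjusted p of 0.508. Of the triple-mutant values, 1 lay under the 1 FPKM filter and the other just above it. Its genomic surroundings were shifted too: less the median of 26 neighbours within 5 Mb the log2 fold change was -0.21. Fancl, the ligase subunit, was at 6.31 and 4.08 FPKM against 6.33 and 12.0 FPKM, with tumors 26043 and 26048 level and tumor 26050 high.

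Fance and Fancf, which link the core complex to FANCD2 and hold it together, were higher in the triple-mutant tumors. Fance (chr17:28313530-28326574) stood at 23.3 and 25.1 FPKM in the triple-mutant and at 12.7 and 12.7 FPKM in the double-mutant tumors. The tumors of each genotype were nearly level, and the log2 fold change of 0.88 (SE 0.27) had the smallest p of all 48 members, 0.0263 before and 0.480 after adjustment over all genes. It was 0.66 less the median of 186 neighbours within 5 Mb, and 0.83 to 0.93 with any 1 tumor left out. Fancf (chr7:51860577-51862267) stood at 7.03 and 5.74 FPKM against 3.18 and 3.51 FPKM, again without overlap (log2 fold change 0.76, SE 0.31, adjusted p = 0.531).

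The subunits downstream and the rest of the core complex did not separate the genotypes. Fancd2 and Fanci, which clamp on DNA as a pair, were at 3.24 to 3.65 FPKM and at 2.83 to 3.55 FPKM, and the log2 ratio of Fancd2 to Fanci stayed between -0.05 and 0.28. The values of both genes lay close across the 4 tumors. Fancc was at 4.44 to 5.90 FPKM and Fancg at 2.95 to 5.46 FPKM, both with overlap. The core subunits A, B, L and M were thus higher in both double-mutant tumors, E and F in both triple-mutant tumors, and C and G in neither. For Fancl tumors 26043 and 26048 were level, at 6.31 and 6.33 FPKM, and no subunit passed the test.

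End joining genes had a median log2 fold change of -0.49, with 5 of 8 higher in both double-mutant tumors and none in both triple-mutant tumors, beside 22.9% and 21.3% of all genes. Without Polq, which passed the filter through its higher group, these were -0.46 and 4 of 7, close to the -0.46 of the checkpoint genes. Xrcc6 (Ku70, chr15:82016369-82040084) was at 25.9 and 21.7 FPKM in the triple-mutant and at 33.9 and 47.9 FPKM in the double-mutant tumors (log2 fold change -0.74, SE 0.31, adjusted p = 0.534). Xrcc5 (Ku80), the other subunit of the ring that caps broken ends, was at 9.10 and 8.42 FPKM against 15.5 and 14.5 FPKM (log2 fold change -0.71, SE 0.29, adjusted p = 0.520). Neither gene overlapped, and the values of Xrcc5 were close within each genotype: with any 1 tumor left out its log2 fold change ran from -0.76 to -0.66, and less the neighbours within 0.5 Mb it was -0.67. That of Xrcc6 dropped in size to -0.40 less its 23 neighbours within 0.5 Mb and to -0.51 less those within 5 Mb. The log2 ratio of Xrcc5 to Xrcc6 was -1.41 and -1.27 in the triple-mutant and -1.08 and -1.66 in the double-mutant tumors, so the pair lay lower together and its ratio overlapped.

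Polq, the polymerase of microhomology-mediated joining on which recombination-deficient cells lean, was at 0.962 and 0.819 FPKM in the triple-mutant and at 1.70 and 2.48 FPKM in the double-mutant tumors (log2 fold change -0.70, adjusted p = 0.548). Both triple-mutant tumors were under 1 FPKM. Lig4, the ligase of end joining, was at 3.71 and 1.82 FPKM against 4.02 and 3.98 FPKM, low in tumor 26044 alone, while its cofactor Xrcc4 stayed at 4.45 to 5.14 FPKM. The log2 ratio of Lig4 to Xrcc4 was -1.07 in tumor 26044 and -0.21 to -0.29 in the others. Prkdc, the DNA-dependent kinase that Ku recruits, had the lowest mean level of the 48 genes and overlapped at 0.86 to 1.66 FPKM, far under its neighbour Mcm4 at 26.9 to 33.5 FPKM.

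The ratio of the PARP genes separated these tumors by genotype, but no genotype difference is concluded from it. Parp1, the main poly(ADP-ribose) polymerase and target of PARP inhibitors (chr1:180568975-180601254), had the highest mean level of the 48 genes, at 35.2 and 39.8 FPKM in the triple-mutant and 46.8 and 62.6 FPKM in the double-mutant tumors (log2 fold change -0.52, adjusted p = 0.601). Parp2, its smaller relative (chr14:50807946-50821300), overlapped at 12.5 and 17.3 FPKM against 8.96 and 13.8 FPKM. The log2 ratio of Parp1 to Parp2 was 1.42 and 1.16 in the triple-mutant and 2.26 and 2.11 in the double-mutant tumors. The triple-minus-double difference was -0.89, and its pooled SD of 0.15 rests on 2 tumors of each genotype. Out of 12 partner ratios, that of Parp1 to Parp2 was the one that lay higher in both double-mutant tumors. That of Mre11a to Rad50 lay higher in both triple-mutant tumors. The ratio of Brca2 to Palb2 did so only with the added 1, and their plain FPKM ratios overlapped between the genotypes. With 2 tumors against 2, an exact permutation test of any such ratio cannot give a p below 0.333, so none was run. A ratio unrelated to genotype would separate the genotypes, in either direction, with that same chance of 0.333. Some of 12 ratios would thus be likely to separate by random order alone, and no genotype difference is concluded from these ratios. Parp1 and Parp2 were each close to their chromosomal surroundings in the tumor where they stood out most. In tumor 26050 Parp1 lay 0.62 and its 60 neighbours within 5 Mb a median of 0.57 above the others, and in tumor 26048 Parp2 lay 0.63 and its 98 neighbours 0.59 under them. In the other tumors they were less close: in tumor 26043 Parp1 lay 0.46 under the others and its neighbours 0.08, in tumor 26044 0.23 and 0.62 under, and Parp2 lay 0.04 under in tumor 26043 where its neighbours lay 0.32 above. Less these neighbours, the log2 fold change of Parp1 was 0.02 and that of Parp2 -0.15. Whether the neighbours' shift accounts for the ratio was not tested.

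**Figure D4:**
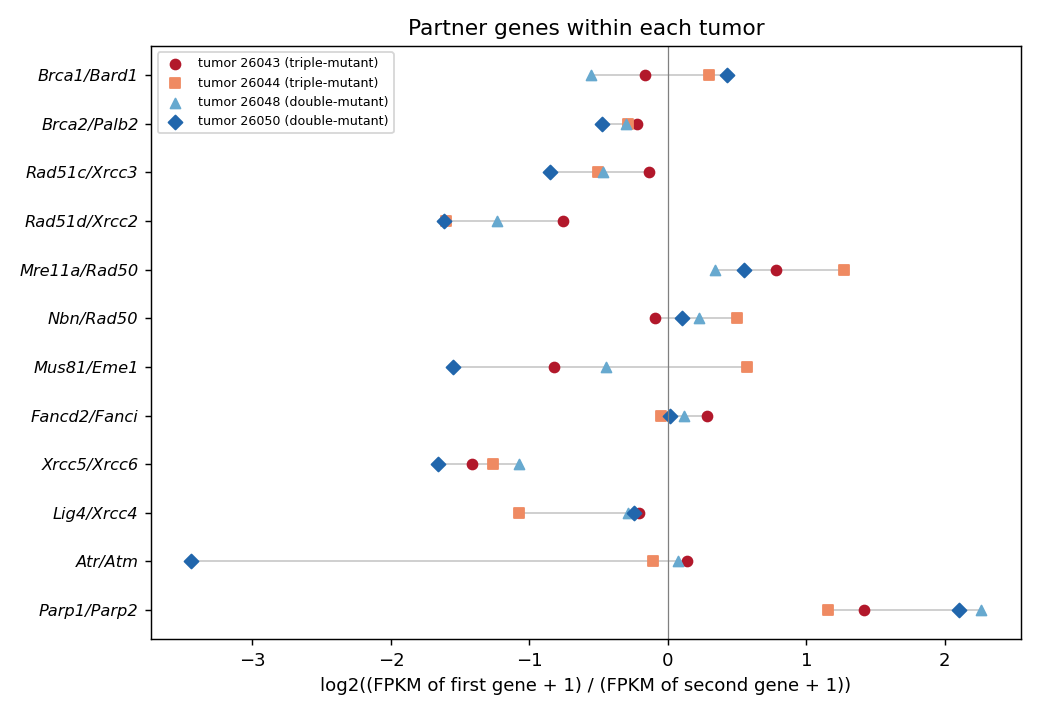
Log2 ratio of the FPKM (each plus 1) of 2 partner genes within a tumor, for 12 pairs; circles and squares are the triple-mutant tumors 26043 and 26044, triangles and diamonds the double-mutant tumors 26048 and 26050. The Parp1/Parp2 ratio lies at 1.16 to 1.42 in the triple-mutant and at 2.11 to 2.26 in the double-mutant tumors, and Atr/Atm at -3.45 in tumor 26050 only.

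Beyond the 48, the wider pathway lay close to the median of all genes. Of 65 further break-repair genes tested, 18 were higher in both double-mutant tumors and 8 in both triple-mutant tumors, beside the same 22.9% and 21.3% of all genes, with a median log2 fold change of -0.03. None passed the test, where the count over all genes was also 0. Of its 21 further strand exchange and single-strand binding genes, 9 were higher in both double-mutant tumors and 2 in both triple-mutant tumors, with a median of -0.17. Gen1, a junction resolvase, was at 1.04 and 0.97 FPKM in the triple-mutant and at 3.03 and 3.63 FPKM in the double-mutant tumors (log2 fold change -1.11, limma unadjusted p = 0.0168, adjusted p = 0.451). Tonsl, which acts at stalled replication forks, was at 6.26 and 5.34 FPKM against 9.72 and 11.8 FPKM.

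Signalling and accessory genes lay near the median of all genes. Break signalling (20 genes) had a median log2 fold change of 0.00, the Fanconi accessory genes (14) 0.05 and the end joining accessory genes (10) -0.05. H2afx, the histone that ATM phosphorylates at breaks, was at 178 and 473 FPKM in the triple-mutant and at 109 and 34.9 FPKM in the double-mutant tumors (log2 fold change 2.21, adjusted p = 0.487). Rev3l, the catalytic subunit of polymerase zeta, was at 6.64 and 35.4 FPKM against 2.02 and 2.90 FPKM, where tumor 26044 stood high. Both ran opposite to most of the 48 genes.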

How the data were processed

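PolyA RNA of 4 tumors was sequenced as 50-bp single-end reads from dUTP libraries. The authors aligned the reads with TopHat 2.0.10 and Bowtie 0.12.9 to mm10 (build 38 of the mouse genome), as their processing notes name them, and estimated the deposited FPKM and interval of each gene with Cufflinks 2.1.1. The gene annotation and the strand setting are not given in the sources used here, so reads of genes that overlap on opposite strands may be mixed. The authors' read counts and their tests were not analysed here. Single values carry no replicate, and the depth is unknown.

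The 48 genes and all lists and tests were chosen with earlier results of these data known. Tables were joined by gene symbol and position, starts were counted from 1, and all 48 genes overlapped their GENCODE M21 gene on GRCm38. A gene was kept (12752 were) where 2 or more of the 4 tumors reached 1 FPKM. The fit on log2(FPKM + 1) used limma 3.58.1 (R 4.3.3, eBayes with a trend, Benjamini-Hochberg adjustment, threshold 0.05), with 2 tumors per genotype and no covariate. The fit was tested on simulated data. Named in full were Brca1 and the 6 members with the largest log2 fold change each way among those whose genotypes do not overlap (5 in the triple-mutant direction), the members of 12 partner pairs, and in other lists up to 3 such genes a direction. Xrcc5 is also given in full, chosen after its values were seen. Proteins are not shown, and 1 gene of the wider pathway is not reported here and was left out of its list. Neighbours were tested genes whose lower coordinate lies within 5 Mb (or 0.5 Mb, at least 3 genes) of that of a member. Tables and plots were made with pandas 2.3.3, matplotlib 3.10.9 and numpy 2.4.6 under Python 3.11.15. Alternatives were TPM, a filter of 5 FPKM or none, a pseudocount of 0.1, quantile normalization, genes of status OK, interval midpoints, no trend, each tumor left out and subtraction of the neighbours' median.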

Additional observations from a re-analysis of the deposited data

How the results depend on the processing

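No paired analysis was possible because the labels number the tumors without saying which are littermates. No member passed the test under any alternative, with adjusted p values from 0.152 to 1.0. The count of members higher in both double-mutant tumors was 23, and 13 with the 5 FPKM filter, which left fewer genes. With each tumor left out it was 29 to 30. In those runs 1 tumor stands for its genotype and is assumed to vary like the others. Leaving out a tumor cannot make separated genotypes overlap, so such a count can only stay or rise. The count higher in both triple-mutant tumors was 5, and 8 with the interval midpoint, where the cause was not tested. It was 7 to 11 with each tumor left out, 11 without tumor 26044 and 10 without tumor 26048. The median log2 fold change was -0.30 to -0.17 with each tumor left out.

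The sign of 12 members turned outside those runs, and the cause was not tested. With the interval midpoint the log2 fold change was 0.11 for Brip1, 0.086 for Fancd2, 0.044 for Fanci and 0.084 for Xrcc4. Less the neighbours within 5 Mb it was 0.17 for Brip1, -0.39 for Chek2, 0.092 for Fanci, 0.017 for Parp1, -0.15 for Parp2 and 0.014 for Xrcc4. Less those within 0.5 Mb, chosen after seeing the data, it was -0.15 for Mre11a, 0.0031 for Rad50, 0.10 for Nbn, 0.11 for Atm, 0.10 for Atr, -0.18 for Chek2, 0.13 for Fanci and -0.16 for Parp2.

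With each tumor left out, 14 members turned sign in at least 1 run. The range was -0.16 to 0.053 for Brip1, -0.11 to 0.32 for Rad51d, -0.34 to 0.070 for Xrcc2, -0.45 to 0.16 for Xrcc3, -0.25 to 0.45 for Rad54l, -0.051 to 0.28 for Wrn, -0.23 to 0.30 for Chek2, -0.16 to 0.042 for Fanci, -0.88 to 0.0019 for Dna2, -0.19 to 0.94 for Mus81, -0.078 to 0.058 for Fancd2, -0.51 to 0.20 for Fancg, -0.42 to 0.082 for Slx4 and -0.087 to 0.26 for Fancc. All 14 overlapped between genotypes with all tumors in, which had to be so. Where the genotypes do not overlap, leaving out 1 tumor cannot turn the sign, so this is no check of those members.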

Other observations

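Repair routes that do not act on double-strand breaks lay near the median of all genes. Of 36 genes tested, 9 were higher in both double-mutant tumors and 10 in both triple-mutant tumors, beside 22.9% and 21.3% of all genes, with a median log2 fold change of -0.05. The 7 mismatch repair genes had a median of -0.19, the 14 base excision genes 0.01 and the 15 nucleotide excision genes 0.08. Nthl1, a glycosylase for oxidized pyrimidines, was at 11.3 and 20.1 FPKM in the triple-mutant and at 6.10 and 6.66 FPKM in the double-mutant tumors. Ung, which removes uracil from DNA, was at 62.6 and 41.2 FPKM against 20.0 and 29.8 FPKM. Both were higher in both triple-mutant tumors, and neither passed the limma test after adjustment (adjusted p = 0.488 for Nthl1 and 0.503 for Ung).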
